A study of Coryphaena hippurus with 32 samples.

Results

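A small set of genes was briefly high in mahi-mahi at 48 h post fertilization (hpf): lower at 24 hpf and lower again at 96 hpf. The set was chosen on the control libraries. A gene entered when its mean in 48 hpf controls was at least 30 CPM, counts scaled to a common library total, and at least 2.5 times its mean in both 24 hpf and 96 hpf controls. Some large gene families and a few single genes were left out by name, which removed 1 of 19 identifiers that met these values. The 18 left, of 12653 identifiers in the count table, are 17 separate genes, because CES5A shares its counts with another identifier in all samples. Since control values chose the set, its control profile is a description and is not tested.

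The 17 genes fall into a few known roles. POU3F1, INSM1, INSM2, HELT and FOXN4 are transcription factors known, mostly from mouse, for switching neural or neuroendocrine precursors to defined cell fates. GDF11 is a secreted TGF-beta family ligand, WFIKKN2 a secreted protein that binds and blocks GDF11 and its relative myostatin, and LDLRAD4 a membrane protein that dampens TGF-beta signalling inside the cell. POSTN (periostin) is a matrix protein and MMP11 (stromelysin-3) a secreted matrix metalloproteinase. IGFN1 and MYOZ1 sit at the Z-disc, the anchor of the contractile filaments in skeletal muscle. APOB is the structural protein of the lipoproteins that carry yolk lipid to the fish embryo, FADS6 a relative of the fatty acid desaturases, SERPIND1 the secreted thrombin inhibitor heparin cofactor II, and CES5A a carboxylesterase. MOSPD2 is a membrane protein that tethers the endoplasmic reticulum to other organelles.

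RNA was sequenced from whole mahi-mahi (Coryphaena hippurus), 30 pooled animals per sample, kept from soon after fertilization with slick oil at 1 g/l, with source oil at 1 g/l, or in seawater with 0 g/l oil (control), and taken at 24, 48 or 96 hpf. Both oils came from the Deepwater Horizon spill, slick oil collected from the sea surface and source oil taken from the well, and each was mixed into seawater at high energy. The oil load was the same, but measured hydrocarbons were not analysed here, and the kind of oil and the dissolved dose cannot be told apart. Of 32 samples, 5 pairs of controls did not differ beyond sampling noise and each pair was counted as 1 sample, leaving 27 libraries, 3 in each of the 9 groups. These are 48 hpf controls 4 and 5, 6 and 7, and 8 and 9, and 96 hpf controls 10 and 11, and 12 and 13. Each sample held 1895511 to 2777955 counts over the kept table lines. The labels do not tie replicates to separate spawns, and p-values therefore reflect only how these samples vary, which may be technical. In whole animals, fewer cells of a type and less RNA per cell cannot be told apart.

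The transcription factors had 1 clear maximum each in controls. POU3F1 averaged 135 ± 10.4, 368 ± 20.3 and 109 ± 4.24 CPM in controls at 24, 48 and 96 hpf (SD, n = 3 each). INSM1, a zinc-finger factor of neuroendocrine and neuronal differentiation, averaged 44.6 ± 1.41, 217 ± 10.7 and 50.2 ± 3.15 CPM at those stages. Its close relative INSM2 was 4.09 times as high at 48 hpf as at 24 hpf and 4.53 times as high as at 96 hpf, nearly the same shape at a lower CPM. FOXN4, a forkhead factor of retinal and spinal interneurons in mouse, and HELT, a Hairy-related factor of midbrain inhibitory neurons in mouse, peaked at 38.4 and 39 CPM. Their 48 hpf means exceeded the next highest stage by 3.25 times and 3.32 times.

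In the TGF-beta group the ligand and its binding partner were high at the same stage. GDF11 had 16.9, 16.3 and 16.1 CPM in the 24 hpf controls, 83.9, 81.5 and 83 CPM at 48 hpf and 11.2, 12.5 and 11.1 CPM at 96 hpf. WFIKKN2 had 3.69, 2.04 and 4.75 CPM in the 24 hpf controls, 118, 115 and 112 CPM at 48 hpf and 45.4, 35.6 and 33 CPM at 96 hpf. The 48 hpf mean of WFIKKN2 was 32.9 times its 24 hpf mean but 2.95 times its 96 hpf mean, so it kept more of its peak level than GDF11, whose ratio to 96 hpf was 7.07. LDLRAD4 averaged 5.91, 31.7 and 6.67 CPM over the 3 stages, close to the entry level. SMAD7, an intracellular inhibitor of the same pathway, fell just outside the set with a smaller ratio of 2.45.

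The matrix and muscle genes differed in how sharp the peak was. The kept POSTN line entered narrowly, 2.66 times higher at 48 than at 96 hpf, whereas its other lines averaged 129 and 81.2 CPM in controls at 48 hpf and 22.4 and 15.9 CPM at 96 hpf. MMP11 peaked evenly, 3.37 and 3.42 times above the stages on either side. IGFN1 was 7.21 times its 24 hpf mean and 8.2 times its 96 hpf mean. MYOZ1 was the member nearest the limit at 2.57 times. Nearest below it were SMAD7 and IGDCC3, a cell-surface receptor of the immunoglobulin family, at 2.23 times.

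Among the lipid and secreted genes, FADS6 was almost silent at first. It had 0.528, 1.02 and 0.475 CPM in the 24 hpf controls, 30.4, 31.8 and 32.1 CPM at 48 hpf and 7.95, 6.36 and 5.35 CPM at 96 hpf, and its peak of 31.4 CPM was the closest to the entry level. APOB leaned the other way, with a 48 hpf mean 2.89 times the 24 hpf mean and 7.19 times the 96 hpf mean. SERPIND1 and CES5A peaked at 34.1 and 47.5 CPM. MOSPD2 had 28, 30.6 and 38 CPM in 24 hpf controls, 472, 517 and 500 CPM at 48 hpf and 90.7, 89.2 and 92.3 CPM at 96 hpf, ratios of 15.4 and 5.49.

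On CPM from raw library totals, a highest control mean at 48 hpf was uncommon among all genes. Of 8435 genes with at least 5 CPM in some control stage, 835 (9.9%) had their highest control mean at 48 hpf, against 3334 at 24 hpf and 4266 at 96 hpf. Marker genes were read beside the set on 28 lists, of which those holding a member and the neuronal list are given. Highest at 48 hpf were 11 of 28 muscle genes other than myosins and troponins and 5 of 13 liver secreted proteins. So were 3 of 15 yolk and lipoprotein genes and 1 of 21 neuronal genes. Other lists ranged from 2 of 4 glial genes to 0 of 21 eye genes. These counts are descriptions and depend on the scale. TMM scaling factors, which multiply the library total, were 0.8856 to 0.9344 in controls at 48 hpf. They were 0.9809 to 1.0068 at 24 hpf and 1.0688 to 1.0996 at 96 hpf. Raw totals therefore lower 48 hpf values relative to the other stages, and the counts were not repeated with TMM scaling. Only 3 members are on any of these lists: APOB among yolk and lipoprotein genes, SERPIND1 among liver proteins and MYOZ1 among muscle genes.

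**Figure D1:**
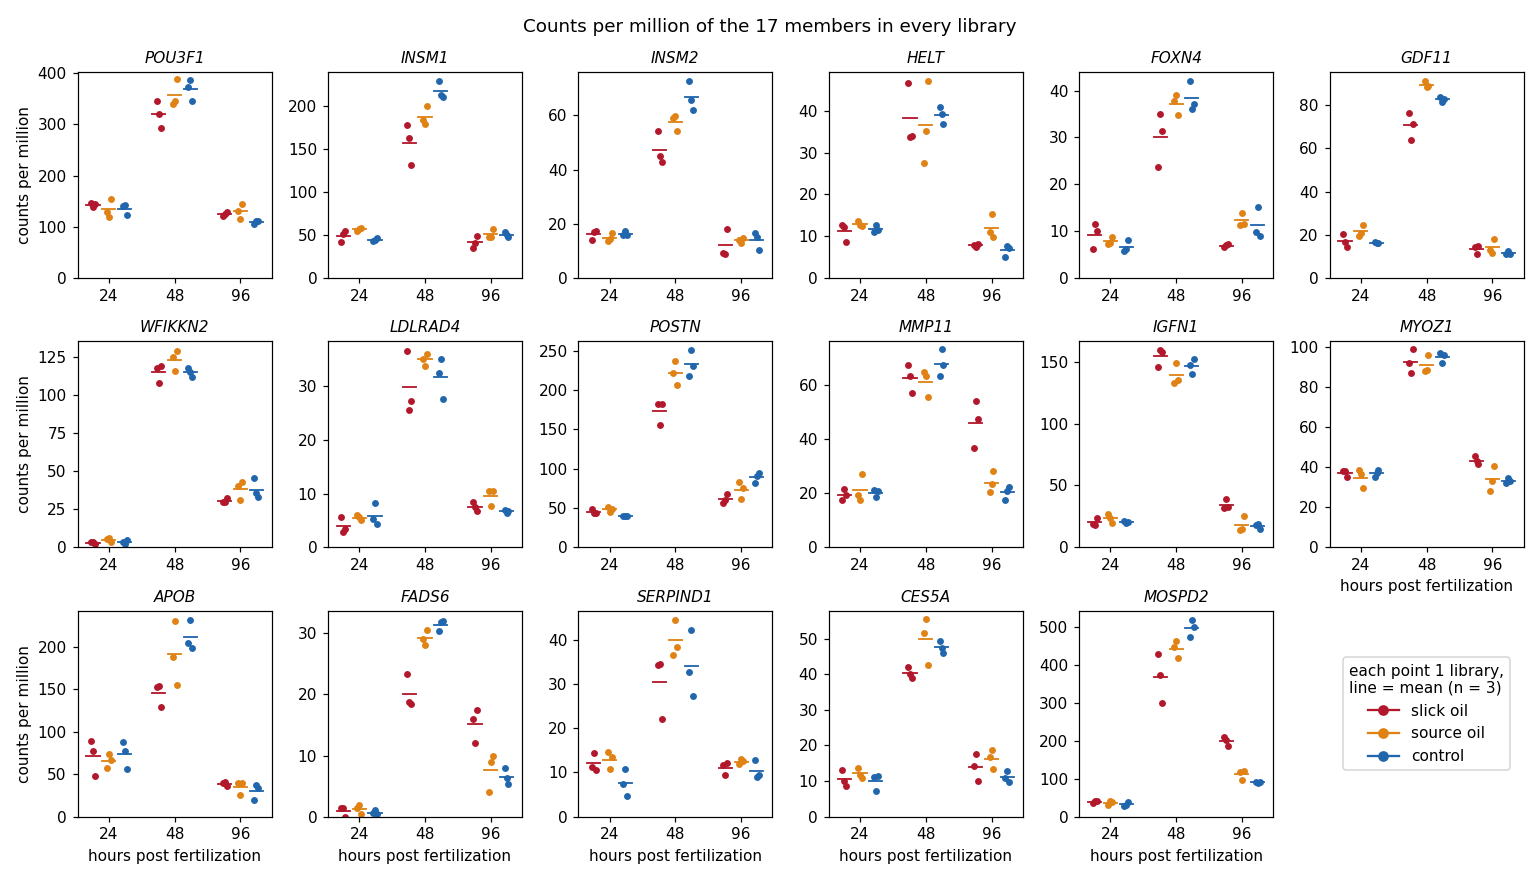
CPM of the 17 genes in each of the 27 libraries at 24, 48 and 96 hpf, 1 panel per gene, for slick, source and control (points are libraries, short lines are group means, each panel has its own axis from 0). Every gene was highest at 48 hpf in all 3 treatments, and the slick means at 96 hpf stand above the others for MMP11, IGFN1, MOSPD2 and FADS6.

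The rule took no stage mean from the oil libraries, which counted only in choosing the table line of highest total for each gene. All 17 genes rose and fell again in both oils. From 24 to 48 hpf all 17 rose in slick (edgeR quasi-likelihood test, all adjusted p at most 2.28e-11), where 23% of all 8898 genes tested rose, and all 17 rose in source, where 23.8% did. From 48 to 96 hpf all 17 fell in slick, where 24.4% of genes fell, and all 17 fell in source, where 23.6% did. The members' median 48 hpf level was 3.98-fold that of 24 hpf in slick and 4.64-fold in source. Their median 96 hpf level was 0.216-fold that of 48 hpf in slick and 0.263-fold in source. These stage folds come from normalised counts over all stages. With raw library totals in place of this scaling, the median of all genes moved to 0.33 on the log2 scale between 48 and 96 hpf in slick, against 0.05, and all members kept their direction.

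The smallest and largest of these changes were specific genes. WFIKKN2 was 43.8-fold higher at 48 than at 24 hpf in slick (log2 change 5.45 ± 0.18, SE) and 28.1-fold in source, with 3.29, 3.38 and 2.41 CPM in slick and 5.49, 6.08 and 3.22 CPM in source at 24 hpf. FADS6 declined least after the peak in slick, to 0.615-fold (log2 change -0.70 ± 0.19, adjusted p = 0.00111), against 0.226-fold in source. Of all these stage calls it was the only one lost in any of 13 alternatives, 1 of which fitted the oil libraries alone (adjusted p = 0.0527 with raw library totals, and from 0.000754 to 0.0527 over the alternatives). MMP11 declined to 0.598-fold in slick against 0.333-fold in source, and MOSPD2 to 0.441-fold in slick against 0.213-fold in source.

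Applied to the oil libraries on CPM from raw library totals, the entry rule gave much the same list in source and a shorter one in slick. In slick 9 genes of the whole table met it, all of them members (52.9% of the 17). In source 18 met it, of which 16 were members, 88.9% of that list and 94.1% of the set. The only member missed in source was FADS6, whose mean there was 29.3 CPM, just under the limit. The 8 members missed in slick were APOB and POU3F1, whose 48 hpf mean was 2.03 and 2.23 times the 24 hpf mean, MYOZ1, MMP11, MOSPD2 and FADS6, with 2.14, 1.36, 1.84 and 1.32 times the 96 hpf mean, and LDLRAD4 and FOXN4. Those last genes had 48 hpf means of 29.8 CPM and, rounded up from just under the limit, 30 CPM. These lists depend on the scale. TMM factors of slick were 0.8677 to 0.9535 at 48 hpf, 0.9983 to 1.0239 at 24 hpf and 1.0863 to 1.1093 at 96 hpf. Raw totals therefore lower the 48 hpf values of slick relative to its other stages. Members near a limit can change sides, and the lists in the oils were not repeated with TMM scaling.

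**Figure D2:**
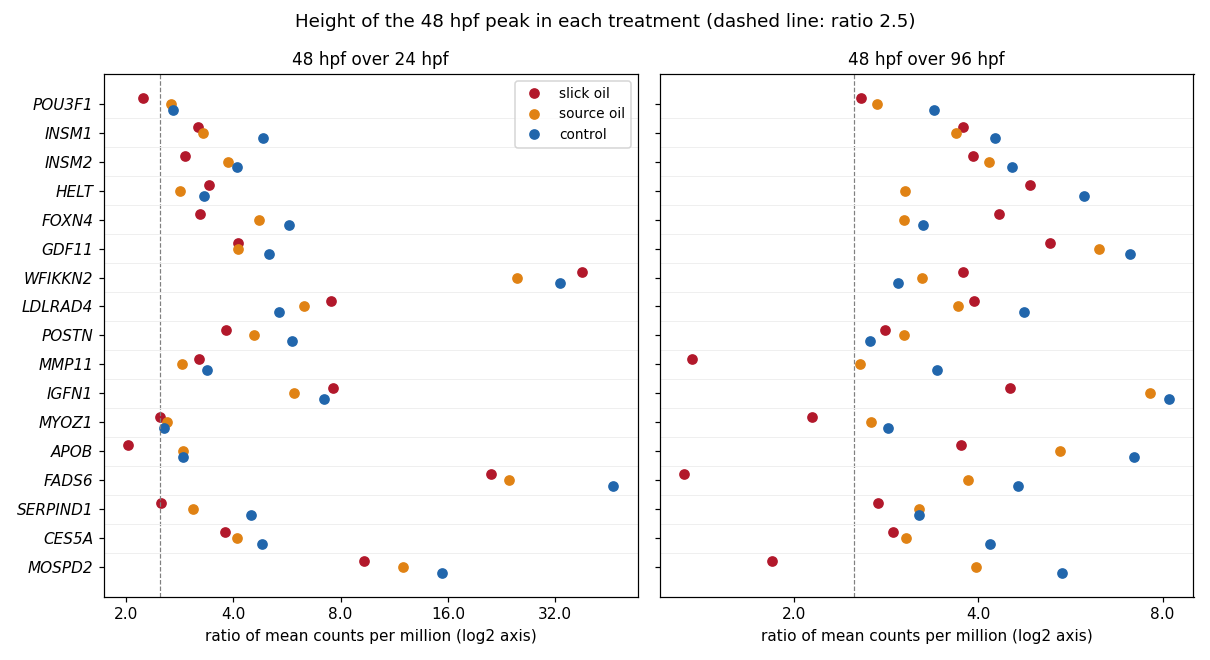
Ratio of the mean CPM at 48 hpf to that at 24 hpf and to that at 96 hpf for each gene in slick, source and control (raw library totals, log2 axis, 1 point per treatment, dashed line at the limit of 2.5). The ratio of 48 to 96 hpf in slick lay below the line for FADS6 (1.32), MMP11 (1.36), MOSPD2 (1.84) and MYOZ1 (2.14), whereas in source and control these 4 genes lay above it.

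At 48 hpf the peak was called lower in slick than in control animals for 7 of the 17 genes and higher for none. The 7 were APOB, INSM1, INSM2, POSTN, MOSPD2, FADS6 and POU3F1, each 0.645-fold to 0.875-fold of control. Over all 8060 genes tested 3.3% were called in this comparison and 1.82% were called lower. Among genes of at least 30 CPM in 48 hpf controls, the level the rule asks for, 5.83% were called. The rule chose genes that were high in these same controls, so this count is not independent of the choice. Over the 17 genes the median log2 change was -0.22, with 15 below 0, and over all genes it was 0.00.

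The transcription factors INSM1 and INSM2 moved alike. INSM1 had 177, 162 and 131 CPM in slick at 48 hpf, 183, 179 and 199 CPM in source and 229, 212 and 210 CPM in control. All slick values lay below all source values, and these below all control values. INSM1 was 0.727-fold of control in slick (log2 change -0.46 ± 0.07, SE, adjusted p = 1.79e-06). INSM2 had 54.3, 45 and 42.8 CPM in slick, 59, 59.8 and 54.1 CPM in source and 72.7, 65.5 and 62 CPM in control. Slick lay wholly below control for this gene, at 0.716-fold (adjusted p = 0.000377), and the highest slick value just passed the lowest source value.

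POU3F1 had 346, 321 and 293 CPM in slick at 48 hpf and 373, 386 and 346 CPM in control, a difference of 0.875-fold (log2 change -0.19 ± 0.05, adjusted p = 0.0357). The highest slick and the lowest control value were equal to 3 digits. The call was lost without control 4 and 5, control 6 and 7, slick 5 or slick 6 (adjusted p = 0.181, 0.123, 0.0545 and 0.216), and with DESeq2 (adjusted p = 0.145). Over all its alternatives the adjusted p ran from 0.00817 to 0.235. FOXN4 had 23.7, 34.9 and 31.4 CPM in slick and 42.1, 36 and 37.1 CPM in control without passing the test (log2 change -0.34 ± 0.13, adjusted p = 0.146). HELT had 46.6, 33.8 and 34 CPM in slick, spanning the control values of 40.8, 39.3 and 36.9 CPM.

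APOB, the lipoprotein core, had 153, 154 and 129 CPM in slick at 48 hpf, 188, 231 and 155 CPM in source and 205, 232 and 199 CPM in control. On CPM from raw totals the slick values were all below the others, but the closest slick and source values, 154 and 155 CPM, can change order with scaling. The source values spread across the gap. The slick level was 0.688-fold of control (log2 change -0.54 ± 0.08, adjusted p = 2.06e-06). With all table lines of a gene summed the same change missed the threshold (log2 change -0.54, adjusted p = 0.0506, with alternatives from 1.34e-14 to 0.0506). FADS6, with 23.3, 18.7 and 18.4 CPM in slick, 29.1, 28.1 and 30.5 CPM in source and 30.4, 31.8 and 32.1 CPM in control, showed the lowest fold of the 17, 0.645-fold (log2 change -0.63 ± 0.13, adjusted p = 0.000853). Only the slick CPM stood apart for FADS6, but slick against source was not called (log2 change -0.47, adjusted p = 0.171 in a fit of the oil libraries alone). SERPIND1 and CES5A were at 0.9-fold and 0.856-fold without passing the test (adjusted p = 0.682 and 0.3).

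Of the matrix genes 1 changed. POSTN had 182, 156 and 182 CPM in slick at 48 hpf, 222, 237 and 206 CPM in source and 218, 251 and 231 CPM in control. Slick was below both other groups, which overlapped each other, and stood at 0.747-fold of control (log2 change -0.42 ± 0.06, adjusted p = 5.31e-06). MMP11 had 67.3, 63 and 57 CPM in slick and 63.1, 73.1 and 67.1 CPM in control, which overlapped.

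MOSPD2 had 428, 372 and 298 CPM in slick at 48 hpf, 446, 462 and 417 CPM in source and 472, 517 and 500 CPM in control. No slick or source value reached the lowest control value, and slick reached 0.741-fold of control (log2 change -0.43 ± 0.06, adjusted p = 1.46e-06). The muscle genes and the TGF-beta group were not called at this stage. WFIKKN2 had 118, 108 and 119 CPM in slick against 118, 115 and 112 CPM in control, 1.01-fold. GDF11 had 76.5, 64.1 and 71.5 CPM in slick, below all source values of 91.3, 88.3 and 88.7 CPM and all control values of 83.9, 81.5 and 83 CPM, yet did not pass over all genes (0.859-fold of control, adjusted p = 0.118; 0.827-fold of source, adjusted p = 0.138).

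Within the 3 slick libraries of 48 hpf several members were lowest in the same library on CPM from raw totals. Replicate 6 had the lowest slick CPM for INSM1, INSM2, POU3F1, APOB, MOSPD2, FADS6, MMP11, CES5A and SERPIND1, a pattern seen after the values were read. TMM factors of slick 4, 5 and 6 were 0.9535, 0.8785 and 0.8677, so part of this order comes from the scale. For close values, such as CES5A (42.1, 40 and 39 CPM), the order can change with scaling. Without replicate 6, 6 members were called against control, POU3F1 having dropped out. Its part in the other calls is covered by the fits that left it out, which kept APOB, INSM1, INSM2, POSTN, MOSPD2 and FADS6. Replicate 4 stood apart from the other slick libraries over all genes, with a chi-square per degree of freedom of 2.86 and 3.18 against replicates 5 and 6, which were at 1.38 from each other. Without replicate 4 the count against control was 7, all lower.

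In source animals the 48 hpf peak was called lower for 2 of the 17 genes, INSM1 and MOSPD2, both also called in slick. Over all genes 1.32% were called in source against control and 0.658% were called lower. INSM1 was at 0.827-fold (log2 change -0.27 ± 0.07, adjusted p = 0.0198) and MOSPD2 at 0.855-fold (log2 change -0.23 ± 0.06, adjusted p = 0.0431). Neither call is firm. INSM1 lost it without control 4 and 5 or source 13, 14 or 15 (adjusted p = 0.193, 0.111, 0.13 and 0.0506; 0.00248 to 0.272 over all alternatives), and MOSPD2 lost it without any 1 of the 6 libraries (adjusted p from 0.0652 to 0.301; 0.00342 to 0.381 over all alternatives). The comparison shares its control libraries with that of slick, so the 2 are not independent. The rule also chose genes that were high in these same controls, which favours lower values in source, so the count is a description.

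The estimate of slick against source at 48 hpf uses no control library, although the 3 controls share the fit's estimate of spread. Here 2 of the 17 were called, both lower in slick, where 0.744% of all genes were called and 0.273% called lower. APOB in slick was 0.792-fold of source (log2 change -0.34 ± 0.08, adjusted p = 0.036) and POSTN 0.818-fold (log2 change -0.29 ± 0.07, adjusted p = 0.021). APOB lost the call without slick 6, source 13 or source 14 (adjusted p = 0.18, 0.106 and 0.518, with a log2 change of -0.18 without source 14; 0.000579 to 0.518 over all alternatives). POSTN lost it without slick 5, source 13 or source 14 (adjusted p = 0.215, 0.106 and 0.246; 0.00308 to 0.262 over all alternatives). In a fit of the 6 oil libraries alone POSTN kept its call (adjusted p = 0.0364) and APOB missed the threshold (adjusted p = 0.0774), where 0.701% of all genes were called. Without slick 4 the count was 4, with APOB, POSTN and MOSPD2 lower and IGFN1 higher in slick, and without source 13 or source 14 it was 0. Over the 17 genes the median log2 change was -0.21, with 13 below 0, and over all genes it was 0.00.

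**Figure D3:**
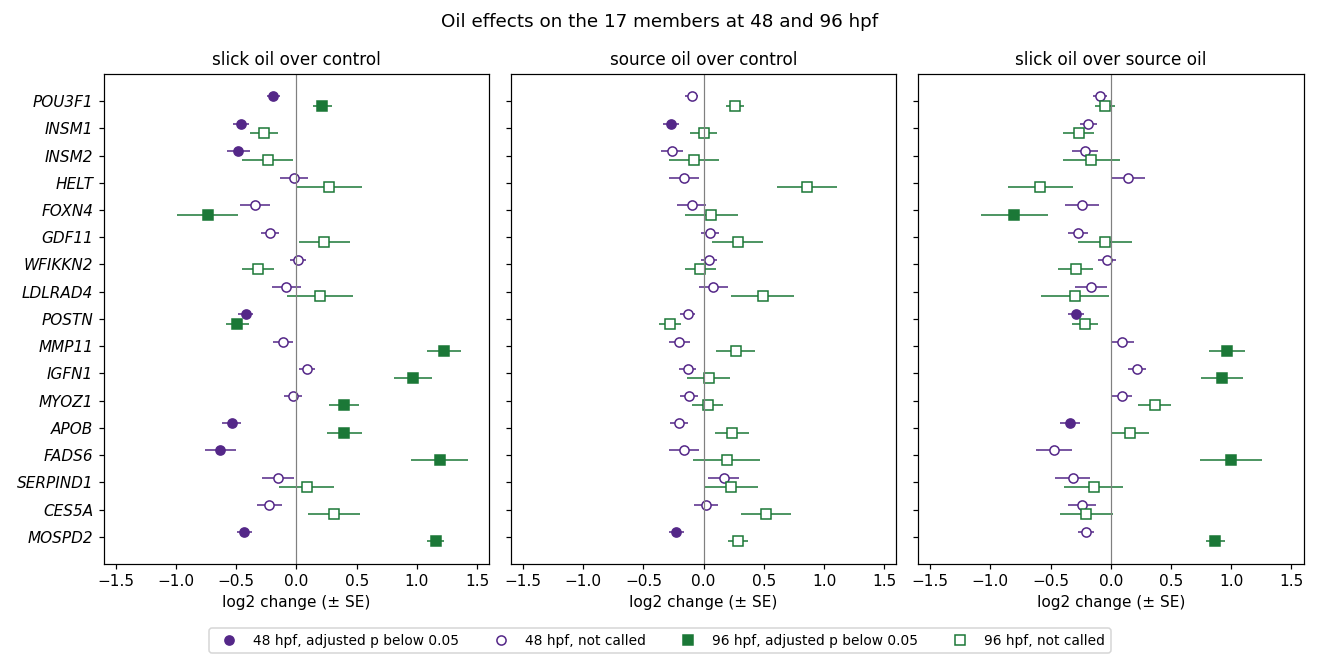
Log2 change with its standard error from edgeR for the 17 genes in slick against control, source against control and slick against source, at 48 and 96 hpf (filled points passed at an adjusted p below 0.05). At 48 hpf most slick points lie left of 0, down to -0.63 for FADS6, and at 96 hpf MMP11, FADS6, MOSPD2 and IGFN1 lie between 0.87 and 1.23 in both slick comparisons.

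At 96 hpf, after the peak, slick larvae held more of several of these transcripts. Against control 7 of the 17 genes were higher (MMP11, FADS6, MOSPD2, IGFN1, APOB, MYOZ1 and POU3F1) and 2 lower (FOXN4 and POSTN). In 1 fit over all stages the split was 5 higher and 4 lower, WFIKKN2 and INSM1 joining the lower genes, and with DESeq2 it was 4 higher and 1 lower. This stage had a broad response, with 21.2% of all 8511 genes called, 10.9% higher and 10.4% lower, and 28.8% among genes of at least 30 CPM in 48 hpf controls. The 96 hpf controls also took part in the choice of genes, which required them to be low. The median log2 change of the 17 was 0.23, and of all genes 0.01.

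The differences from control of 4 genes in slick at 96 hpf were the largest of the 17, 1.95-fold to 2.34-fold. MMP11, the matrix protease, had 36.6, 54.1 and 47.2 CPM in slick at 96 hpf, 20.3, 23.3 and 28 CPM in source and 17.5, 20.9 and 22.3 CPM in control. Every slick value was above every other value, and slick was 2.34-fold of control (log2 change 1.23 ± 0.14, adjusted p = 5.38e-13) and 1.95-fold of source (adjusted p = 1.23e-07). MOSPD2 had 209, 201 and 187 CPM in slick, 118, 96.3 and 119 CPM in source and 90.7, 89.2 and 92.3 CPM in control. The 3 groups did not overlap, with slick at 2.23-fold of control (log2 change 1.15 ± 0.07, adjusted p = 1.49e-29) and at 1.82-fold of source (adjusted p = 1.75e-18).

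IGFN1, of the muscle Z-disc, had 31.9, 38.7 and 32.4 CPM in slick at 96 hpf, 14.4, 14.8 and 25.5 CPM in source and 18.2, 19.1 and 14.7 CPM in control. Slick stood alone above both, 1.95-fold of control (log2 change 0.97 ± 0.16, adjusted p = 1.66e-07) and 1.9-fold of source (adjusted p = 1.16e-05). These values are those of the kept line, and IGFN1 has 7 distinct lines. Over all alternatives the log2 change against source ran from 0.60 to 1.26, against 0.93, and the call was kept in each. FADS6 had 16, 12.1 and 17.5 CPM in slick, 3.96, 8.96 and 9.92 CPM in source and 7.95, 6.36 and 5.35 CPM in control. It was 2.28-fold of control (log2 change 1.19 ± 0.24, adjusted p = 2.73e-05) and 2-fold of source (adjusted p = 0.00257), a slick against source call lost without source 16 (adjusted p = 0.0779; 0.00151 to 0.0815 over all alternatives). FADS6, MOSPD2, APOB and POU3F1 were each called lower than control in slick at 48 hpf and higher at 96 hpf. The rule asked for controls high at 48 hpf and low at 96 hpf, which favours such a crossing, so this is a description. POU3F1 lost its call in 7 of 15 alternatives at 48 hpf and 9 of 13 at 96 hpf, and APOB in 7 of 13 at 96 hpf.

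Smaller differences at 96 hpf rested on few libraries. MYOZ1, the second Z-disc gene, had 45.5, 42.9 and 41.4 CPM in slick and 32, 34.7 and 33 CPM in control, 1.32-fold without overlap (adjusted p = 0.0125). It missed the threshold without control 10 and 11 or slick 7 (adjusted p = 0.0652 and 0.0635; 0.0116 to 0.0996 over all alternatives). APOB had 39.4, 40.6 and 36 CPM in slick and 20.1, 36.8 and 33.9 CPM in control, which overlapped, the 20.1 coming from control 10 and 11. Its change of 1.32-fold (log2 change 0.40 ± 0.14, adjusted p = 0.0311) was 0.13 on the log2 scale without that control (adjusted p = 0.616), and the call was also lost without slick 7 or slick 8 (adjusted p = 0.0806 and 0.112; 0.0017 to 0.616 over all alternatives). POU3F1 had 121, 125 and 129 CPM in slick and 105, 111 and 112 CPM in control, 1.16-fold (adjusted p = 0.037), and lost its call in 4 of the 6 fits without 1 library, those without control 10 and 11, control 12 and 13, slick 8 or slick 9 (adjusted p from 0.0777 to 0.188; 0.0246 to 0.221 over all alternatives).

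POSTN was lower in slick at both stages. At 96 hpf it had 55.9, 60.7 and 68.3 CPM in slick, 83.2, 61.4 and 75.5 CPM in source and 82.1, 90.3 and 94.1 CPM in control. Slick was wholly below control, at 0.71-fold (log2 change -0.49 ± 0.10, adjusted p = 1.57e-05), and overlapped source. FOXN4 had 6.57, 7 and 7.19 CPM in slick, 11.4, 13.9 and 11.6 CPM in source and 9.82, 15.2 and 8.92 CPM in control. Slick lay below every source and control value, at 0.6-fold of control (adjusted p = 0.0245) and 0.574-fold of source (adjusted p = 0.0349). Both calls depended on single libraries: against control it was lost without control 12 and 13 or slick 7, 8 or 9 (adjusted p = 0.341, 0.0838, 0.0642 and 0.0556; 0.013 to 0.341 over all alternatives), the log2 change without control 12 and 13 being -0.44 against -0.74. Against source it was lost without slick 7, 8 or 9 or source 17 or 18 (adjusted p from 0.0575 to 0.15; 0.0279 to 0.15 over all alternatives).

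The other transcription factors, the TGF-beta group, SERPIND1 and CES5A were not called in slick at 96 hpf. WFIKKN2 had 29.6, 29.9 and 32.4 CPM in slick, all below the control values of 45.4, 35.6 and 33 CPM, at 0.802-fold (adjusted p = 0.0781). This holds for the kept line: 2 of its other lines averaged 27.9 and 11.8 CPM in slick, against 17.5 and 3.18 CPM in control, while another had 21.1 CPM in slick and 23.3 CPM in control. With all lines summed the log2 change was 0.17 (adjusted p = 0.38). Without control 10 and 11 the kept line's log2 change was -0.16 (adjusted p = 0.53), against -0.32 with all libraries. Over all alternatives the adjusted p ran from 0.0355 to 0.53. INSM1 had 35.2, 40.6 and 48.6 CPM in slick and 53.5, 49.9 and 47.3 CPM in control, overlapping at 0.831-fold (adjusted p = 0.0912). GDF11 had 14.6, 11.2 and 14.8 CPM in slick against 11.2, 12.5 and 11.1 CPM in control, which overlapped.

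Source larvae at 96 hpf had no call among the 17 against control, where 1.1% of all genes were called. At an unadjusted p below 0.05 there were 5, a threshold at which all genes were not counted, so nothing is read from it. DESeq2 also called 0, and without source 17 there were 2 calls. The rule required these 96 hpf controls to be low, which favours higher values in source, so these counts are descriptions. Nearest to a call were MOSPD2 at 1.22-fold (adjusted p = 0.0576) and HELT at 1.81-fold (adjusted p = 0.061). HELT had 10.9, 15.2 and 9.92 CPM in source, all above the slick values of 7.98, 7.47 and 8.09 CPM and the control values of 5.14, 7.72 and 7.13 CPM. Slick against source gave 5 calls of the 17 at this stage, MMP11, IGFN1, MOSPD2 and FADS6 higher in slick and FOXN4 lower. Over all genes 13.5% were called between the oils, 6.99% higher and 6.47% lower in slick.

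At 24 hpf, before the peak, no member was called in any comparison. FADS6 did not pass the low-count filter there, and 16 genes were tested. Over all 7757 genes tested 0.58% were called in slick against control, 1.69% in source against control and 0.219% in slick against source. At an unadjusted p below 0.05, where all genes were not counted, there were 1, 2 and 0 members, and DESeq2 called 0 in each.

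The relative height of the peak was the log2 level at 48 hpf minus the mean of the log2 levels at 24 and 96 hpf. It was compared between treatments in 1 fit of all 27 libraries, and a change at 24 or 96 hpf alters it too. The rule asked control to be high at 48 hpf and low at 24 and 96 hpf, which favours a lower estimated relative height in either oil. The comparisons with control are therefore descriptions, and nothing is read from their counts against the share of all genes. The relative height was called lower in slick than in control for 5 of the 17 genes and higher for none, with 4.34% of all genes called and 2.11% called lower. MOSPD2 differed most among them (log2 difference -1.12 ± 0.11, adjusted p = 5.18e-14). APOB differed by -0.69 ± 0.14 (adjusted p = 0.00046), MMP11 by -0.67 ± 0.15 (adjusted p = 0.00203), INSM1 by -0.36 ± 0.11 (adjusted p = 0.0328) and POU3F1 by -0.31 ± 0.08 on the log2 scale (adjusted p = 0.0103). Without slick 6 of 48 hpf there were 3 calls, INSM1 and POU3F1 having missed the threshold (adjusted p = 0.189 and 0.0567; alternatives from 0.0152 to 0.236 for INSM1 and from 0.00386 to 0.145 for POU3F1). INSM1 also missed it without control 1 or 2 or slick 2 or 3 of 24 hpf, control 4 and 5 of 48 hpf, or control 12 and 13 or slick 9 of 96 hpf (adjusted p from 0.056 to 0.145). APOB missed it with DESeq2 and with all lines summed (adjusted p = 0.154 and 0.168, and 1.9e-07 to 0.168 over all alternatives), and POU3F1 also with all lines summed (adjusted p = 0.145). At 48 hpf itself MMP11 was not called in slick against control (log2 change -0.11, adjusted p = 0.622), and it was higher at 96 hpf (log2 change 1.23).

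The relative height in source was not called different from control for any of the 17, with 0.214% of all genes called. All 17 estimates were below 0 and 5 had an unadjusted p below 0.05, a threshold at which all genes were not counted, and DESeq2 called 1. There was 1 call without control 3 or source 10 of 24 hpf, control 4 and 5, control 6 and 7 or source 14 of 48 hpf, or control 14 or source 17 of 96 hpf. MOSPD2 and INSM1 came closest (log2 difference -0.43 ± 0.11, adjusted p = 0.0512, and -0.41 ± 0.11, adjusted p = 0.0591). All 17 share the same control libraries, whose values chose them. Between the oils the estimate uses no control library, although the controls share the estimate of spread. Of the 17 estimates 12 were below 0. MOSPD2 alone was called, with a lower relative height in slick (log2 difference -0.69 ± 0.11, adjusted p = 7.58e-06), where 1.15% of all genes were called. It was also the 1 call in a fit of the 18 oil libraries alone (adjusted p = 1.09e-05; 1.81e-08 to 0.0205 over all alternatives). Without slick 3 of 24 hpf or source 15 of 48 hpf there were 2. At 48 hpf itself MOSPD2 was not called between the oils (log2 change -0.21 in a fit of the oil libraries alone), and at 96 hpf it was higher in slick (log2 change 0.87). In relative height WFIKKN2 and HELT had estimates above 0 (0.46 ± 0.23 and 0.54 ± 0.22) that did not pass (adjusted p = 0.47 and 0.332).

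The decline after the peak was compared in the same fit, a test added after the values were seen. The choice of genes with high 48 hpf and low 96 hpf controls favours a shallower decline in the oils, so the comparisons with control are again descriptions, with nothing read from their counts. The decline was called shallower in slick than in control for 6 genes and steeper for none, with 11.6% of all genes called. The differences in log2 change from 48 to 96 hpf were 1.78 ± 0.27 for FADS6, 1.55 ± 0.10 for MOSPD2, 1.30 ± 0.17 for MMP11, 0.90 ± 0.19 for APOB, 0.84 ± 0.17 for IGFN1 and 0.37 ± 0.10 for POU3F1. Their adjusted p ran from 5.26e-24 for MOSPD2 to 0.00522 for POU3F1. APOB missed the threshold with DESeq2 and with all lines summed (adjusted p = 0.0548 and 0.0666; 3.16e-07 to 0.0666 over all alternatives), and POU3F1 with all lines summed (adjusted p = 0.0734; 0.00169 to 0.0734 over all alternatives). Between the oils, in an estimate without control values, 4 of these genes declined less in slick, where 5.15% of all genes differed. They were FADS6 (1.44 ± 0.30, adjusted p = 0.000364), MOSPD2 (1.05 ± 0.11, adjusted p = 3.28e-13), MMP11 (0.84 ± 0.18, adjusted p = 0.000843) and IGFN1 (0.68 ± 0.19, adjusted p = 0.0151), the last being lost without slick 8, source 16 or source 17 of 96 hpf (adjusted p = 0.107, 0.127 and 0.143; 0.000592 to 0.238 over all alternatives). With all lines summed the IGFN1 call was also lost, at a log2 difference of 0.41 (adjusted p = 0.238). In source against control 15 of the 17 estimates were above 0. MOSPD2 alone was called, declining less in source (0.50 ± 0.11, adjusted p = 0.0035), with 0.652% of all genes called. It missed the threshold without source 18 of 96 hpf (adjusted p = 0.0515; 0.000297 to 0.297 over all alternatives), and there were 3 calls without control 8 and 9 or source 15 of 48 hpf and 2 without source 17 of 96 hpf.

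Genes of like function to APOB, SERPIND1 and MYOZ1 are given as counts on lists, which are descriptions. Over all genes 3.3% were called in slick against control at 48 hpf, 1.82% lower, and 21.2% at 96 hpf, 10.9% higher and 10.4% lower. Of 15 yolk and lipoprotein genes tested at 48 hpf, 4 were lower in slick than in control and none higher: APOB, DGAT2 (triglyceride synthesis, 0.656-fold), LCAT (cholesterol esterification on lipoproteins, 0.784-fold) and CTSD (the yolk-processing protease cathepsin D, 0.836-fold). At 96 hpf 7 of 14 were higher in slick and 1 lower, with all 4 of those genes among the 7. The 48 hpf change was not limited to slick. In source against control, where 1.32% of all genes were called, DGAT2 (0.759-fold), LCAT (0.765-fold) and CTSD (0.838-fold) were lower. LRP2, of the same list, was higher there (1.19-fold). Of 13 liver secreted proteins, 4 were lower at 48 hpf in slick, among them RBP4 (retinol carrier, 0.709-fold) and F2 (prothrombin, precursor of the thrombin that SERPIND1 inhibits, 0.655-fold). The others were ITIH2 (0.718-fold) and FETUB (0.834-fold), and RBP4 and ITIH2 were also lower in source at 48 hpf (0.87-fold and 0.843-fold). At 96 hpf 7 were higher in slick, RBP4, F2 and ITIH2 among them, and 2 lower, FETUB among them (0.602-fold). The 96 hpf rise was not limited to slick either. In source at 96 hpf, where 1.1% of all genes were called, F2 (1.47-fold), FGB (1.24-fold) and FGG (1.26-fold) were higher and none of this list lower. Of 27 muscle genes 1 was higher at 48 hpf in slick and none lower, and at 96 hpf 7 of 28 were higher, MYOZ1 included, and 9 lower. The non-members named here were chosen after their values were seen.

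How the table was built limits single genes. Identifiers are human genes that mahi-mahi sequences were matched to, so 1 symbol can hold several fish genes, and INSM1 and INSM2, or related proteases, may share reads. The kept line's normalised mean was within 1.5-fold of the authors' deposited mean for every member except POSTN. For POSTN the kept line stood at 0.641 to 0.665 of the authors' deposited mean at 24 and 48 hpf, and its values are those of 1 line. With all lines summed the POSTN decline from 48 to 96 hpf in slick was -2.47 on the log2 scale, against -1.79 for the kept line. CPM are not divided by gene length, so levels are not compared between genes.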

How the data were processed

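Whole-number counts per table line were deposited by the authors without normalization. Per the submitters' processing notes, HTSeq, DESeq2 and hg19 were used, in roles and versions not given in the sources used here. Nor do those sources say how fish reads were assigned to human gene identifiers. Per the file headers, the authors' comparison tables hold a mean per gene of counts divided by size factors, used here as a signal. Only these means and the gene symbols were used from them, and 12210 of 12653 identifiers had a symbol. The 332 lines with no identifier, up to 0.043% of the counts in any sample, entered no total or test.

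Each identifier was represented by its line of highest total over all samples, oil samples included. CPM were computed on the sum of kept lines. Control means for the entry rule were taken over the deposited samples, and means ± SD over the 3 libraries per group after summing 5 control pairs (chi-square per degree of freedom 0.968 to 1.04 over genes with at least 20 counts, p at least 0.0138 against a threshold of 0.001). A summed library held up to 4857505 counts, so low counts are the least precise. Changes were tested with edgeR 4.0.16 (R 4.3.3; TMM scaling, filterByExpr, two-sided quasi-likelihood F-test, Benjamini-Hochberg adjustment over all genes tested), within a stage over 9 libraries or over all 27. A call is an adjusted p below 0.05. DESeq2 1.42.0 was an alternative. Fits of the oil libraries alone and raw library totals were alternatives added after the values were seen. Scripts were tested on simulated counts. The members, marker lists and tests were chosen with earlier results of these data known. Members were named where they were among the 8 highest or sharpest, the 4 highest or lowest called in a comparison, on a marker list, called in both oils or nearest the limit. Other members are named for completeness. Sequences were not used here.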

Additional observations from a re-analysis of the deposited data

Results flagged for a closer look

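For the results below an edgeR fit of all 27 libraries, adjusted over all genes, called the profile over the stages different between 2 treatments. The comparisons with control use the control values that chose the genes, which favours a lower peak and a shallower decline in the oils, so they are descriptions and not independent of the choice. The estimates of slick against source use no control value. Values are log2 differences, slick or source first, and no cause was tested. The relative height of the peak, defined above, also moves with the levels at the other stages. It was lower in slick than in control for MOSPD2 (-1.12), APOB (-0.69), MMP11 (-0.67), INSM1 (-0.36) and POU3F1 (-0.31). It was lower in slick than in source for MOSPD2 (-0.69). In the fits within a stage, MMP11 was not called in slick against control at 48 hpf (-0.11) and was higher at 96 hpf (1.23). Between the oils MOSPD2 was not called at 48 hpf (-0.21) and was higher in slick at 96 hpf (0.87). The other genes named, and MOSPD2 against control, were called lower in slick at 48 hpf. The change from 48 to 96 hpf, a test added after the values were seen, was higher in slick than in control for FADS6 (1.78), MOSPD2 (1.55), MMP11 (1.30), APOB (0.90), IGFN1 (0.84) and POU3F1 (0.37). It was higher in slick than in source for FADS6 (1.44), MOSPD2 (1.05), MMP11 (0.84) and IGFN1 (0.68), and in source than in control for MOSPD2 (0.50). The tests of the relative height and of the change from 48 to 96 hpf both use the 48 hpf libraries. They are therefore not independent of each other.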

How the results depend on the processing

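No called result for a named member changed direction under any alternative run. Among named members that were not called, the log2 change of WFIKKN2 in slick against control was -0.32 at 96 hpf and 0.17 with lines summed, and at 48 hpf it was 0.014, and -0.0388 to 0.0454 without 1 library (-0.0123 without control 6 and 7, 0.0427 without slick 5). That of HELT at 48 hpf was -0.021, and -0.1483 to 0.0449 without 1 library (0.0251 without control 4 and 5), and that of SERPIND1 was -0.152, and -0.2831 to 0.0070 without 1 library. WFIKKN2 and INSM1 in slick and MOSPD2 and HELT in source at 96 hpf, and the relative height of the source peak of MOSPD2 and INSM1, were each called under at least 1 alternative. At 48 hpf the count called in source against control was 2; it was 1 with DESeq2, 0 with raw library totals and 0 with all lines of a gene summed, and 0 to 1 without 1 library. Slick against source gave 2, then 1 with DESeq2, 1 in a fit over all stages, 1 with the oil libraries alone, 0 with lines summed and 0 to 4 without 1 library. Slick against control gave 7, and 6 to 7 without 1 library. Of these 7, POU3F1 lost its call with DESeq2, raw library totals and lines summed (adjusted p = 0.145, 0.07 and 0.235). APOB lost its call with lines summed (adjusted p = 0.0506). POU3F1 has 1 table line, and the other APOB lines held at most 5 counts each. Summing lines thus left the counts of these genes the same or nearly so, and changed other genes and the library totals. At 96 hpf slick against control gave 9, then 5 with DESeq2 and 6 to 10 without 1 library. Source against control gave 0, then 1 with raw library totals, 3 with each deposited sample as a library and 0 to 2 without 1 library. Slick against source gave 5, and 4 to 5 without 1 library. The lower relative height of the peak in slick than in control gave 5, then 3 with DESeq2, 2 with lines summed and 3 to 5 without 1 library. In source against control it gave 0, then 1 with DESeq2, 1 with RLE scaling, 2 with no low-count filter, 2 with deposited samples and 0 to 1 without 1 library. In slick against source it gave 1, then 2 with raw library totals, 2 with no filter and 1 to 2 without 1 library. The change from 48 to 96 hpf gave 6 in slick against control (6 to 7 without 1 library) and 4 in slick against source (3 to 5). In source against control it gave 1, then 2 with RLE scaling, 3 with no filter, 0 with lines summed, 3 with deposited samples and 1 to 3 without 1 library. No cause of these shifts was tested. The set had 17 genes, 27 at a limit of 2 times, 8 at 4 times and 10 with lines summed. Summing, which included identical copies of a line, also raised the library totals, so there the CPM limit was not the same as on kept lines. Calls at 24 hpf (0) and of the stage changes within the oils (17) held at those counts without any 1 library. Slick and control share replicate numbers at 24 and 48 hpf, but same-numbered samples did not deviate together (correlations from -0.0466 to 0.0525), although every 24 hpf slick sample correlated best with its own number. With a replicate block the calls numbered 0 at 24 hpf and 7 at 48 hpf, where the same samples unpaired gave 7. At 48 hpf the block and the correlations used deposited controls 4, 5 and 6. Controls 4 and 5 count elsewhere as 1 sample, so at 48 hpf these checks cannot settle whether replicates are paired. Genes near the entry level, such as FADS6 at 24 hpf, have too few counts for small differences to be detectable.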
